A study of Homo sapiens with 13 samples.

Results

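The regions described here are the short stretches of accessible chromatin that were listed in H146 cells, lay away from protein-coding genes and had no counterpart in H82 cells. They were selected by position from 2 lists of accessible regions, 1 per cell line. A region of the H146 list on chromosomes 1 to 22 was kept if it shared no base with any H82 region, was at least 300 bp and under 1 kb wide, and had its centre outside every protein-coding gene body and over 10 kb from any protein-coding transcription start site (TSS). Of 169986 H146 regions on these chromosomes, 50012 shared no base with H82, 26254 of those had the required width, 12620 of those were centred outside protein-coding genes, and 11228 lay far enough from a TSS. These 11228 H146-only regions made up 27.8% of the 40437 H146 regions that met the same rule on width and location, and the other 29209 overlapped an H82 region by at least 1 bp and are called shared. By the same rule, 18537 regions were H82-only.

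The assay was ATAC-seq, where Tn5 transposase inserts adapters into open DNA. H146 and H82 are human lines of small cell lung cancer (SCLC). H82 belongs to the NEUROD1 subtype (SCLC-N) and H146 to another neuroendocrine subtype. Each line was either untreated or kept for 14 days in 100 nM FHD-286, which inhibits SMARCA4 and SMARCA2, the ATPases of the SWI/SNF chromatin remodelling complex. H146 was sampled 4 times untreated and 3 times treated, and H82 3 times in each state, so each subtype was represented by a single line. The list of each line pooled the regions called in its untreated and its treated samples, on the hg38 build, and held no height, read count or sample of origin.

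Every value below is therefore 1 value per line, with no spread between cultures and no known depth, and an effect of FHD-286 was not tested. Tests took the chromosome as the unit and asked whether a difference held across the genome. The differences and ratios printed are pooled over all regions, while the tests give each chromosome the same weight. A p-value therefore does not belong to the pooled value beside it. The line cannot be told apart from the number and depth of its libraries or from its DNA copy number, and an H146-only region is one that was not called in H82, which is not the same as closed there. Of the neuroendocrine genes checked, INSM1, CHGA, SYP, NCAM1 and DLL3 carried an accessible region at the TSS (1 kb to either side) in both lines, and NEUROD1 carried one in H82 and none in H146. The low-neuroendocrine genes POU2F3, YAP1 and REST also carried one in both lines.

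Intergenic accessible regions far from promoters are often enhancers, short elements where transcription factors bind in place of a nucleosome and act on genes over long distances. NEUROD1 is a basic helix-loop-helix factor. Such factors bind E-boxes, CANNTG, and NEUROD1 favours the form CAGATG. FOXA factors are forkhead proteins that can bind nucleosomal DNA and open it, NFI factors bind a palindrome with the half-site TTGGCA, and CTCF holds chromatin loops and insulates domains. The nearest gene is used below as an address; which gene a region acts on was not measured.

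The sequences that follow show what such regions look like at base level. Each is a 200-bp window, 5′ to 3′ on the plus strand of the hg38 reference, from the H146-only region that had the most matches to the 13 words found below to be denser in H146-only than in shared regions. Capitals mark matches to those words on either strand, and CAGCTG, which was not among them, stays in lower case. The first 5 belong to the genes with the most H146-only regions, and those nearest to SOX2 and FOXA2 were added after their values were seen.

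CELF4, chr18:37588321-37588520: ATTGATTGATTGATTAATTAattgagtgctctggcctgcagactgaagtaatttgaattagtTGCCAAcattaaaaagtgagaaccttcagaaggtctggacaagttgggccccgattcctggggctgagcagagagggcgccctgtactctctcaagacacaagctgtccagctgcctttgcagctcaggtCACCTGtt
PIK3C3, chr18:40639702-40639901: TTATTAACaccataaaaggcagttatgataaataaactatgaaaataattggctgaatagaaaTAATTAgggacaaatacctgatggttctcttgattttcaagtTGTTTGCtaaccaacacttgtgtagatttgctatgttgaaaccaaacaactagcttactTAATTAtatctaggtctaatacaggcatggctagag
TMEM121, chr14:105989717-105989916: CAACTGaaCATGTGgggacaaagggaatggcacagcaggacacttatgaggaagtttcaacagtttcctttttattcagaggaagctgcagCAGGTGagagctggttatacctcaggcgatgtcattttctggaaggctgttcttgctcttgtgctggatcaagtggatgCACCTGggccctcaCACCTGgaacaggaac
SPRY2, chr13:80604775-80604974: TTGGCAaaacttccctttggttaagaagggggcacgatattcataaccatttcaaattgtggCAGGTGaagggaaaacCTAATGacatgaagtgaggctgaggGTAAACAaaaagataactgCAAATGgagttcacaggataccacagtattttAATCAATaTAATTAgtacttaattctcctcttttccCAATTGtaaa
SLITRK5, chr13:88940567-88940766: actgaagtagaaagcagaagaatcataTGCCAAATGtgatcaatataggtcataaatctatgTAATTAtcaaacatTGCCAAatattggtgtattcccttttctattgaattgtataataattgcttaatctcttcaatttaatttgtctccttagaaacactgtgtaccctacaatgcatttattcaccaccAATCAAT
SOX2, chr3:182023833-182024032: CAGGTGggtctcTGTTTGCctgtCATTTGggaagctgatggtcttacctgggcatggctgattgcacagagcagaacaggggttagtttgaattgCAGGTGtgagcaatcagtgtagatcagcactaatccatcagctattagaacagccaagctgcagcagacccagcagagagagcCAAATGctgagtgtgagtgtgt
FOXA2, chr20:22323434-22323633: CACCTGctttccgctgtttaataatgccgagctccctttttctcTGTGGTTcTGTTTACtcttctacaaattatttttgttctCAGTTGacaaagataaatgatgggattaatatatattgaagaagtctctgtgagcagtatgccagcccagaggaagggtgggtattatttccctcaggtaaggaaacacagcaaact

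These windows were picked for many matches and are not typical. The median H146-only region held 3 matches to the 13 words, the most was 23, and 718 regions (6.39%) held none. The region nearest to SPRY2 was 366 bp wide and held 9 matches, 8 of them in the window shown. They include a FOXA site, read as GTAAACA on the plus strand, an NFI half-site, a TAATTA homeobox site and 3 E-boxes. The region nearest to SOX2, 354 bp wide, held 7 matches, with a FOXA site (TGTTTGC) between E-boxes of 2 forms. The region nearest to FOXA2, 402 bp wide, held 5 matches and showed a FOXA site (TGTTTAC) beside a RUNX word, with a CAGGTG E-box (read as CACCTG) at its start. The window nearest to TMEM121 was the one without a FOXA, NFI or homeobox match, and its 5 matches were all E-boxes.

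H146-only regions were narrow. Their median width was 401 bp (quartiles 345 and 505 bp), against 549 bp for shared regions and 454 bp for H82-only regions. The H146-only share fell from 47.8% of H146 regions under 400 bp (95% Wilson interval 46.9 to 48.7) to 8.29% of those of 900 bp or more (7.24 to 9.47). The class was defined by the absence of overlap, and a narrow region has fewer bases with which to meet one in the other line, so this gradient is a description and was not tested. Intervals here cover counting error only. Near the limits of the rule, 627 regions lay within 10 bp above the lower width limit, and 672 others that met every further condition lay within 10 bp below it. At the upper limit these numbers were 14 inside and 18 outside. There were 73 H146-only regions with an H82 region 1 to 100 bp away, and 137 that were left out because an H82 region overlapped them by 1 to 100 bp. The median gap to the nearest H82 region was 4558 bp, and 419 lay within 500 bp of one.

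**Figure D1:**
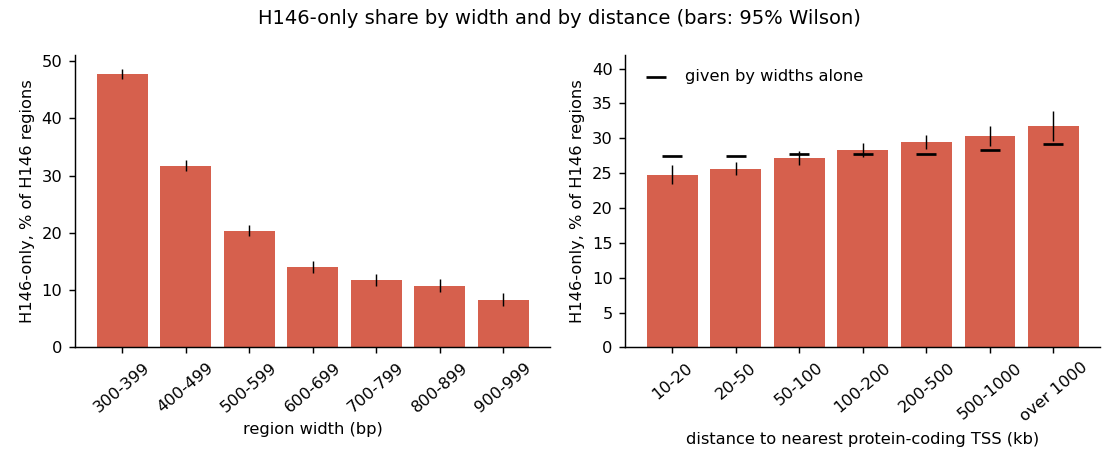
The bars give the percentage of H146 intergenic regions of 300 bp to 1 kb that were H146-only, by region width in bp (left) and by distance to the nearest protein-coding TSS in kb (right), with 95% Wilson intervals. Dashes on the right give the share that the widths alone would give. The share falls from 47.8% to 8.29% with width and climbs from 24.8% to 31.7% with distance.

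All of these regions had met the same limit of 10 kb from a TSS. H146-only regions lay farther from genes and were poorer in G and C than shared regions. The median distance to the nearest protein-coding TSS was 116.6 kb, against 98.7 kb for shared and 98.1 kb for H82-only regions. The median per chromosome was larger than that of shared regions on 19 of 22 chromosomes, and over all regions by 0.07 on the log10 scale (jackknife SE over chromosomes 0.011) or 1.18 times (two-sided sign-flip permutation p = 1e-05, which is the minimum for 100000 resamples, adjusted p = 1.5e-05 over 3 features). The H146-only share went from 24.8% at 10 to 20 kb (23.5 to 26.1) to 31.7% beyond 1000 kb (29.6 to 33.9), where widths alone would have given 27.5% and 29.1%. The mean GC content was 45.6%, against 48.0% for shared regions, and was lower on 22 of 22 chromosomes, with differences of -5.14 to -0.904 percentage points (over all regions -2.43, jackknife SE 0.187, sign-flip permutation p = 1e-05, adjusted p = 1.5e-05). It was still above that of the flanks, the sequence of equal width centred 2 kb to either side, which had 40.8%. Another H146 region lay within 10 kb of 72.9% of H146-only and 74.8% of shared regions. The pooled difference was -1.94 percentage points (SE 0.765), and by chromosome the differences ran from -8.91 to 15.6. The sign-flip permutation test, which gives each chromosome the same weight, did not pass (p = 0.229). A lncRNA gene body held the centre of 29.3% of H146-only regions and 29.7% of shared regions.

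The chromosomes held uneven shares of these regions. The H146-only share of H146 intergenic regions was lowest on chromosome 6, at 18.04% (513 of 2843, interval 16.7 to 19.5), followed by 19.7% on chromosome 15 and 101 of 505 regions on chromosome 19. It was highest on chromosomes 4 (33.7%, 31.7 to 35.7), 5 (33.3%) and 8 (32.7%). The widths alone would have given 27.0% to 29.2% on every chromosome. Chromosome 18 had the most per Mb, 9.49, with 763 H146-only against 277 H82-only regions, or 2.75 of the former for each of the latter, when the genome had 0.606. The whole lists also leaned to H146 there, with 9658 H146 and 7620 H82 regions, against 0.845 H146 regions for each H82 region over chromosomes 1 to 22. Chromosomes 8, 10 and 11 likewise had more regions in H146 than in H82 over the whole lists, with H146-to-H82 ratios of 1.07, 1.05 and 1.04. DNA copy number and accessibility cannot be told apart in these counts.

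**Figure D2:**
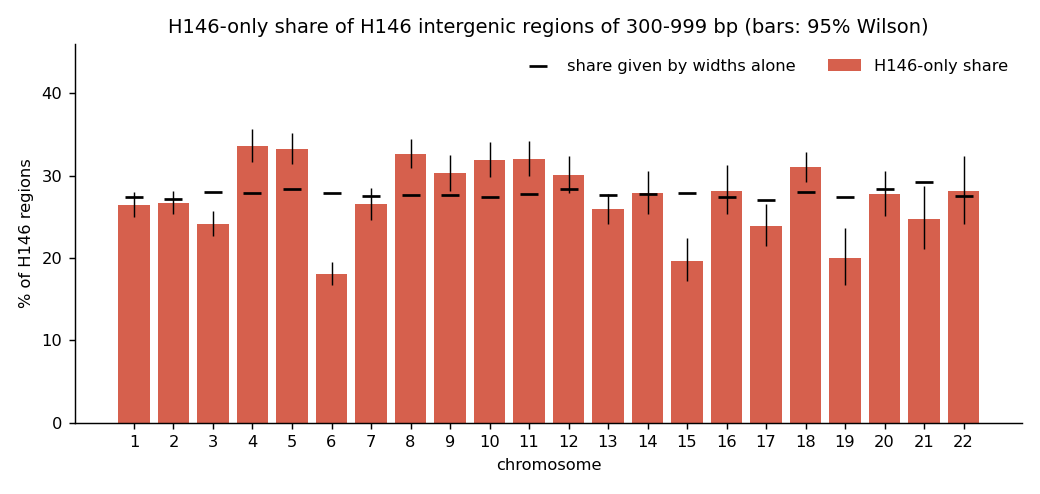
The bars give the percentage of H146 intergenic regions of 300 bp to 1 kb that were H146-only on each of chromosomes 1 to 22, with 95% Wilson intervals. Dashes give the share that the widths of the regions alone would give. Chromosomes 6 and 15 sit lowest, at 18.04% and 19.7%, and chromosome 4 highest, at 33.7%.

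The sequence of the regions was then compared, since it did not enter the rule. On both strands, 37 consensus words were searched in 5061 kb of H146-only, 16926 kb of shared and 9431 kb of H82-only sequence. At adjusted p under 0.05 in the two-sided sign-flip permutation test over 22 chromosomes, 13 words were denser in H146-only than in shared regions and 6 were sparser. Against H82-only regions, 20 were denser and 9 sparser, and against the flanks of the same regions 18 were denser and 7 sparser. The 9 words denser in all 3 comparisons were both FOXA words, NFI, homeobox, HNF1, ISL, RUNX and the E-boxes CAGGTG and CAACTG. A match to a word is not a bound site, and no binding was measured.

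FOXA words had the highest ratios to shared regions among the words that passed. The form TGTTTGC occurred 0.366 times per kb in H146-only regions, 0.261 in shared regions, 0.147 in H82-only regions and 0.165 in the flanks. Its log2 ratio was 0.49 (SE 0.057) against shared regions, with 21 of 22 chromosomes higher (adjusted p = 0.000123), and 1.32 (SE 0.078) against H82-only regions, with 22 of 22 higher (sign-flip permutation, adjusted p = 2.64e-05). The form TGTTTAC occurred 0.345 times per kb, against 0.270, 0.142 and 0.164, with log2 ratios of 0.35 (SE 0.039, sign-flip permutation, adjusted p = 0.000863) against shared and 1.28 (SE 0.051, adjusted p = 2.64e-05) against H82-only regions. Reading a word backwards keeps its base composition but not the pairs of neighbouring bases. Backwards, TGTTTGC and TGTTTAC had log2 ratios of 0.14 (adjusted p = 0.45) and 0.23 (adjusted p = 0.0151) against shared regions in the same sign-flip permutation test. Against H82-only regions their backward ratios were 0.55 (sign-flip permutation, adjusted p = 0.0113) and 0.52 (adjusted p = 0.000101), and both passed. TGTTTGC read backwards holds a CG that the word itself lacks, so this control is not matched for that pair. With shared regions reweighted to the GC content and width of the H146-only regions, the FOXA ratios were 0.39 and 0.29, and both passed. Among regions of at least 500 bp they were 0.29 (adjusted p = 0.0641) and 0.18 (adjusted p = 0.899) by that permutation test, and neither passed.

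In the central 200 bp, 1891 of 11228 H146-only regions (16.8%, 16.2 to 17.5) held a FOXA word of either form, against 12.2% of shared and 5.48% of H82-only regions. Over the whole region, where shared regions are wider, the shares were 26.9%, 26.2% and 13.4%, and 499 H146-only regions held 2 or more matches. Matches were concentrated at the centre. Within 50 bp of it, FOXA words occurred 1.06 times per kb in H146-only regions and 0.699 times in shared regions, and 700 to 1000 bp away 0.315 and 0.303 times. In H82-only regions they occurred 0.290 times at the centre and 0.315 times farther out. The density also depended on width and distance. It was 0.745 per kb in H146-only regions under 400 bp, against 0.495 in shared regions, and 0.620 against 0.522 at 900 bp or more. It was 0.609 against 0.440 at 10 to 20 kb from the TSS, and 0.847 against 0.659 beyond 1000 kb.

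**Figure D3:**
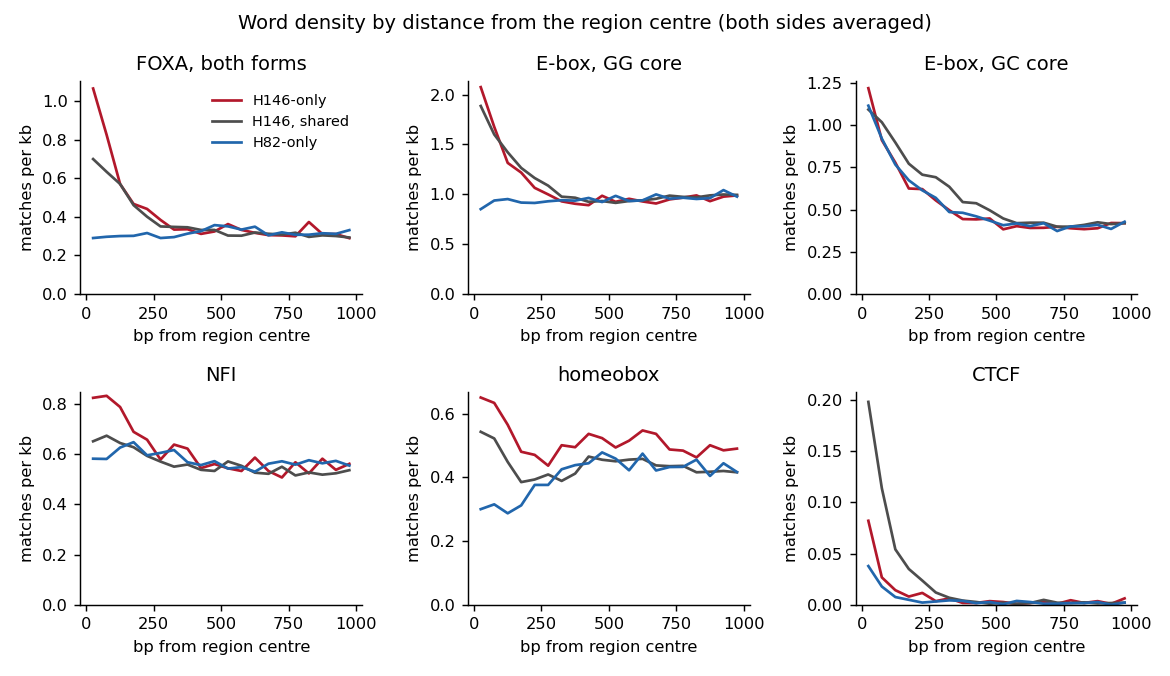
Each panel plots matches per kb to a word (y axis) against the distance in bp from the region centre (x axis, bins of 50 bp, both sides averaged) for H146-only, shared H146 and H82-only intergenic regions. FOXA words reach 1.06 per kb at the centre of H146-only regions and lie at 0.290 per kb at the centre of H82-only regions. The GC-core E-box has a central peak in all 3 classes.

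Homeodomain words behaved in part like FOXA. TAATTA, the core read by many homeodomain factors, occurred 0.564 times per kb in H146-only, 0.443 in shared and 0.304 in H82-only regions, with log2 ratios of 0.35 (SE 0.038) and 0.89 (SE 0.057), and was higher on 22 of 22 chromosomes in both. After reweighting to GC content and width the ratio to shared regions was 0.06 (sign-flip permutation, adjusted p = 0.0956), while that to H82-only regions was 0.56 and still passed. The flanks, which are AT-rich, had 0.499 matches per kb. HNF1, GTTAATNA, a word of hepatic and endodermal homeodomain factors, had a log2 ratio of 0.33 (SE 0.051, sign-flip permutation, adjusted p = 0.0101) against shared regions, but 0.07 (adjusted p = 0.786) after reweighting. ISL (CTAATG) and ONECUT (ATTGATT), words of LIM-homeodomain and CUT factors with roles in neurons and endoderm, were denser than in shared regions by 0.28 and 0.23, and after reweighting the ratios were 0.15 and -0.05. Read backwards, these words were also denser than in shared regions, with log2 ratios of 0.34 for TAATTA (sign-flip permutation, adjusted p = 0.000296), 0.43 for HNF1 (adjusted p = 0.000247), 0.30 for ONECUT (adjusted p = 0.00284) and 0.12 for ISL (adjusted p = 0.0413).

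NFI followed. TTGGCA occurred 0.775 times per kb in H146-only regions, 0.623 in shared, 0.600 in H82-only and 0.544 in the flanks. The log2 ratio against shared regions was 0.31 (SE 0.034, 21 of 22 chromosomes, sign-flip permutation, adjusted p = 0.000123), and that of the reversed word, which holds a CG that TTGGCA lacks, was -0.04 (adjusted p = 0.74). It was 0.28 after reweighting and 0.39 in regions of at least 500 bp, and passed in both. In the central 200 bp, 14.7% of H146-only regions held the word, against 12.0% of shared and 10.6% of H82-only regions.

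The E-box forms were split. CAGCTG occurred 0.881 times per kb in H146-only and 0.887 in shared regions, a log2 ratio of -0.01 (SE 0.032, sign-flip permutation, adjusted p = 0.682), against 0.367 in the flanks, a ratio of 1.27 (SE 0.040, adjusted p = 3.08e-05). After reweighting, its ratio to shared regions was 0.12 (sign-flip permutation, adjusted p = 0.0311). H82-only regions had 0.822 per kb, and the ratio of 0.10 (SE 0.032, sign-flip permutation, adjusted p = 0.00225) did not pass in the central 200 bp, where 18.4% of H146-only, 18.1% of shared and 17.5% of H82-only regions held the word. CAGGTG is a form read by several helix-loop-helix dimers and by zinc fingers of the ZEB type. It occurred 1.53 times per kb in H146-only and 1.42 in shared regions, with 0.921 in H82-only and 0.884 in flank sequence. This word was counted as CAGGTG or CACCTG, while the palindrome CAGCTG was counted once per site, so their densities cannot be ranked. Its log2 ratio was 0.11 (SE 0.031, sign-flip permutation, adjusted p = 0.00165) against shared and 0.73 (SE 0.057, adjusted p = 2.64e-05) against H82-only regions. CAGATG was sparser than in H82-only regions, 0.898 against 1.38 per kb, with a ratio of -0.62 (SE 0.038; 0 of 22 chromosomes higher), and did not differ from shared regions at the threshold (log2 ratio 0.00, SE 0.025; sign-flip permutation, adjusted p = 0.977). Against shared regions, the forms CAATTG (0.27), CACATG (0.21), CAAATG (0.20) and CAACTG (0.08) had log2 ratios that passed above 0, and after reweighting these were 0.10, 0.15, 0.10 and 0.01. Read backwards, the same forms had log2 ratios of 0.16 (sign-flip permutation, adjusted p = 0.0641), 0.38 (adjusted p = 0.000432), 0.29 (adjusted p = 0.000529) and 0.25 (adjusted p = 0.000277). MYB (CAACTGNC) contains one of these forms, and NKX2 (CACTTNA) can overlap another.

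CTCF and the words of GC-rich promoters were sparser than in shared regions. CTCF had 160 matches in H146-only regions, 0.0316 per kb, against 0.0757 in shared regions, a log2 ratio of -1.26 (SE 0.135), higher on 0 of 22 chromosomes (sign-flip permutation, adjusted p = 0.000123), and -1.47 after reweighting. H82-only regions had 0.0140 and flanks 0.00291 per kb. ETS (CCGGAAG) and KLF (GGGCGTG) had ratios of -0.46 (SE 0.134) and -0.43 (SE 0.073), which were -0.03 and -0.09 after reweighting and did not pass. GRHL (AACCGGTT), an epithelial factor word, had 7 matches in all H146-only regions, and its ratio after reweighting, -0.935, did not pass (sign-flip permutation, adjusted p = 0.127). MEF2 (CTAAAAATA) had 0.0504 against 0.0603 per kb, and in the central 200 bp its log2 ratio was -0.0262 (sign-flip permutation, adjusted p = 0.646). It also did not pass at widths of at least 500 bp or beyond 50 kb from a TSS. The OTX word TAATCC occurred 0.432 times per kb in H146-only regions and 1.43 in H82-only regions, a ratio of -1.73 (SE 0.048, sign-flip permutation, adjusted p = 2.64e-05), with 0.443 in shared regions. MEF2 and OTX words also lie within Alu repeats, and the Alu word TGGGAGGC was present in 7.17% of H146-only, 10.5% of shared and 12.3% of H82-only regions and in 14.0% of flanks. Matches inside Alu repeats were not counted apart for these or any other words, KLF and CAGGTG included.

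**Figure D4:**
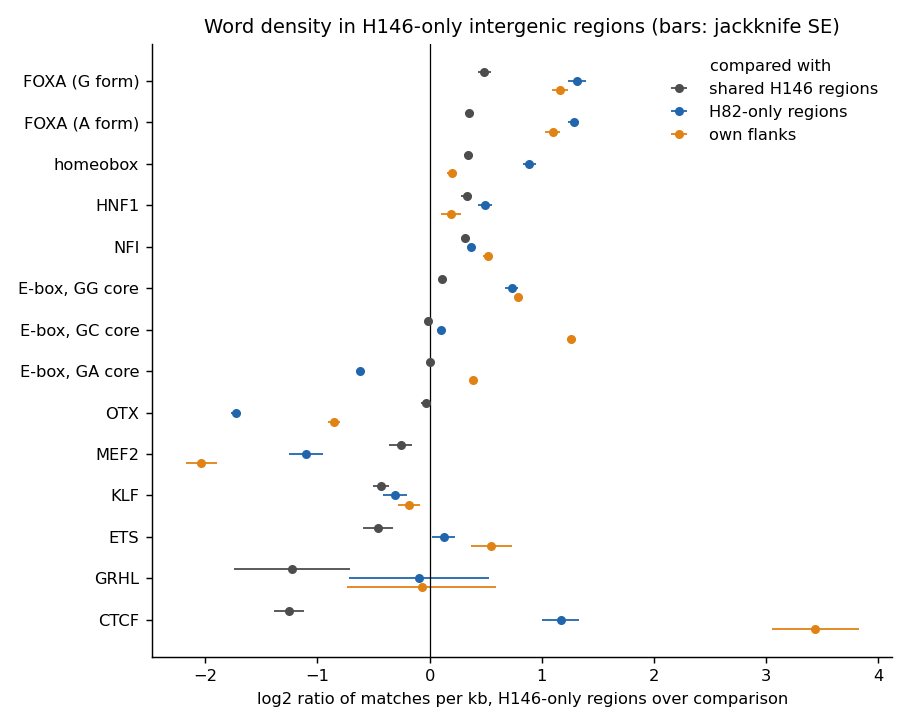
The log2 ratio of matches per kb in H146-only regions over shared H146 regions, H82-only regions or their own flanks (x axis) is plotted for 14 words (y axis), with jackknife standard errors over chromosomes. FOXA words lie to the right in all 3 comparisons, the GC-core E-box lies near 0 except against flanks, and OTX lies at -1.73 against H82-only regions.

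By nearest TSS, the 11228 regions were spread over 4036 of 19111 protein-coding genes. Of these, 1907 genes had a single H146-only region, 632 had 5 or more, 181 had 10 or more and 23 had 20 or more. The 10 genes with the most held 319 regions. Since the rule chose the regions, the counts by gene are a description. They are to be read beside the 27.8% that was H146-only overall. The number that the widths of a gene's regions would give is added for many of the genes.

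CELF4, a neuronal RNA-binding splicing factor, had the most, 45 of its 118 H146 intergenic regions (38.1%, 29.9 to 47.1; 34.9 given by widths), with 18 H82-only regions. PIK3C3, the class III phosphoinositide 3-kinase, had 40 of 129 (37.8 given by widths), with 22 H82-only. Both genes lie on chromosome 18, which had 277 H82-only against 763 H146-only regions. Their H146-only regions reached 2142 and 2195 kb from the TSS. SPRY2, an inhibitor of receptor tyrosine kinase signalling, had 34 of 108 (32.2 given by widths) with 22 H82-only. SLITRK5, a synaptic adhesion protein, had 32 of 95 (27.7 given by widths) with 23 H82-only. KHDRBS3, an RNA-binding protein, had 31 of 89 with 20 H82-only.

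At most of the following genes H82-only regions numbered 10 or fewer. PCDH7, a protocadherin, had 26 of 64 regions H146-only (40.6%, 29.5 to 52.9), against 17.4 given by widths and 2 H82-only regions. SOX2, a neural and foregut transcription factor active in SCLC, had 25 of 84 (23.1 given by widths) with 3 H82-only, within 504 kb of the TSS. SOX9, a factor of progenitor cells, had 25 of 67 (17.9 given by widths) with 7 H82-only. ADGRL3, a latrophilin that takes part in synapse adhesion, had 24 of 68 (19.6 given by widths) with 10 H82-only. CDH9 had 24 of 47 (51.1%, with 14.1 given by widths) with 5 H82-only. CDH7, on chromosome 18, had 22 of 61 (17.5 given by widths) with 0 H82-only. FLRT2, which guides axons, was the exception, with 22 in each line-only class.

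TMEM121 had 37 of 107 (29.3 given by widths) with 0 H82-only, and all 37 lay in the immunoglobulin heavy chain locus next to it, chr14:105583731-106879812. Immunoglobulin segments are a class of their own in the annotation and so counted here as intergenic. H146 regions covered 25.1% of that span and H82 regions 18.2%.

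**Figure D5:**
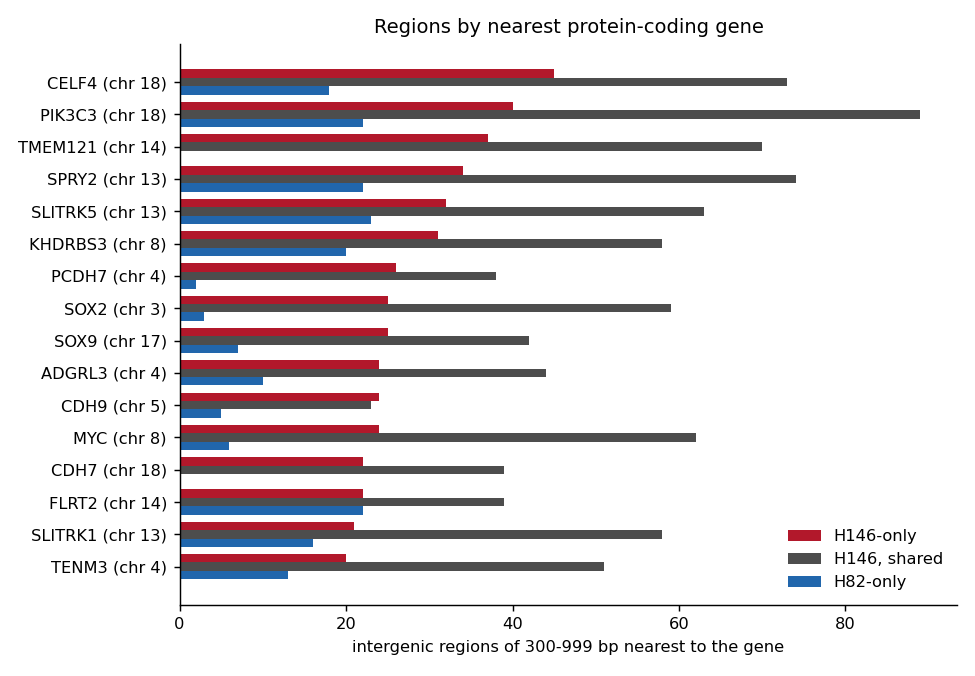
Bars give the number of intergenic regions of 300 bp to 1 kb (x axis) whose nearest protein-coding TSS is that of each gene (y axis), for H146-only, shared H146 and H82-only regions, in the 10 genes with the most H146-only regions and 6 further genes with 20 or more from the gene lists. TMEM121 and CDH7 have 37 and 22 H146-only and 0 H82-only regions, and PCDH7 and SOX2 have 26 and 25 against 2 and 3.

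Over whole gene lists, the H146-only share ran from 21.5% to 34.3%. For 51 lineage transcription factors, 160 of 571 H146 regions were H146-only (28.0%, 24.5 to 31.8; 28.2% given by widths), beside 27.8% of all. For 45 neuroendocrine secretory and neuronal markers the share was 30.7% (79 of 257, 25.4 to 36.6), and for 36 low-neuroendocrine and signalling genes it was 21.5% (59 of 274, 17.1 to 26.8; 26.4% given by widths). For 66 neuronal adhesion and guidance genes it was 34.3% (496 of 1448, 31.9 to 36.7; 28.1% given by widths), and these genes had 477 H82-only regions. Over chromosomes 1 to 22 there were 0.606 H146-only regions for each H82-only region. For 30 endoderm and epithelial genes, included as markers of another lineage, it was 30.8% (70 of 227, 25.2 to 37.1). No test was made on these lists, and they were drawn up with earlier results of these data known. The shares were not matched for chromosome or for distance to the TSS. Over all H146 intergenic regions of this width the share was 24.8% at 10 to 20 kb, 29.5% at 200 to 500 kb and 31.7% beyond 1000 kb.

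Beside SLITRK5, PCDH7, CDH9, CDH7 and FLRT2, the adhesion and guidance genes included SLITRK1 (21 of 79), TENM3 (20 of 71), EPHA7 (15 of 49), the axon guidance receptor ROBO1 (15 of 31, with 18 H82-only), and DCC (13 of 35), a netrin receptor. In that order, widths alone would have given 22.1, 18.1, 14.0, 9.70 and 8.64 regions. CNTNAP2 had 9 of 15 with 1 H82-only region, LRFN5 had 11 of 24 with 2, and CNTN3 had 8 of 10 with 7. At many genes of the list H82-only regions outnumbered H146-only regions, as they did over chromosomes 1 to 22 (18537 against 11228). Examples are PCDH10 (19 against 14), PCDH9 (22 against 14), PCDH17 (19 against 7), CDH6 (17 against 12), CDH11 (16 against 7), LRRTM1 (16 against 5) and TENM2 (22 against 1). Among neuronal markers, the synaptotagmin SYT4 on chromosome 18 had 12 of 32 (8.16 given by widths). STMN2 had 7 of 15 (3.39 given by widths) and the neural cell adhesion molecule NCAM1 had 6 of 17 (4.55 given by widths). These markers had 5 or more H146-only regions, the condition for naming them. Lower shares in the same list include NPY (1 of 13), SCG2 (1 of 10), CHGA (1 of 7) and GAP43 (3 of 14).

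Several genes of the neuroendocrine and lung lineages had few. NKX2-1, a lung lineage factor, had 0 H146-only among 3 intergenic regions of this width, and INSM1, FOXA1 and SYP were the nearest gene of no H146 region of this kind (SYP lies on chromosome X, outside the rule). NEUROD1 had 1 of 7, a region of 940 bp at chr2:181738077-181739016, 57.7 kb upstream of the TSS, with 2 NFI words and no FOXA word. FOXA2, a forkhead factor of foregut and neuroendocrine lung cells, had 7 of 34 (9.51 given by widths) with 2 H82-only. They lay 51.3 to 262 kb from the TSS, and 4 of the 7 held a FOXA word, the one at chr20:22366713-22367133 holding 2.

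The other lineage factors named here had 5 to 12, and 5 was the least for which a list gene was named. Among listed factors with fewer, OTX2 had 0 of 23, POU3F2 2 of 19 and NFIA 2 of 11. PROX1 had 8 of 30 (7.96 given by widths), all upstream, at 35.7 to 449 kb, with 11 H82-only. ISL1 had 5 of 19 (6.24 given by widths) with 5 H82-only. NFIB had 7 of 16 (43.8%, 23.1 to 66.8; 2.92 given by widths) with 5 H82-only. Of the 7, 4 lay together between positions 14067391 and 14078912 of chromosome 9, downstream of the gene's TSS. POU4F1 had 5 of 9, all downstream, and ONECUT1 had 6 of 13, all upstream. LHX2 had 6 of 9, POU3F3 7 of 13 and SOX21 7 of 23. In that order, widths alone would have given 3.55, 3.76, 2.81, 3.86 and 5.73 regions at these genes. SOX1 had 12 of 47 with 0 H82-only, while SOX11 had 12 of 47 with 29 H82-only, and widths would have given 14.1 at each. MYCN had 7 of 31 (8.64 given by widths) with 12 H82-only. The endoderm factor GATA6 had 7 of 22 (6.62 given by widths) with 1 H82-only, and all 7 lay upstream.

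Some H146-only regions lay in dense runs. When regions under 25 kb apart were joined, 4951 (44.1%) fell in 2005 runs of 2 or more, and 76 runs had 5 or more. The run with the most regions had 15 over 106 kb, 104 to 209 kb from the TSS of MYC, the proto-oncogene, at chr8:127838843-127945020. H146 regions covered 30.3% of that span and H82 regions 11.9%. The runs were chosen for their H146-only regions, which share no base with H82, so a higher H146 coverage of these spans is built in. MYC as a whole had 24 of 86 (27.9%, with 22.6 regions given by widths) with 6 H82-only. The next runs were 10 regions near RAI14 (chr5:34447296-34581345), 9 near CAPN13 (chr2:30649556-30716693), 9 between LURAP1L and MPDZ (chr9:12964135-13038427) and 9 between FOXD4L5 and ZNG1E (chr9:65408778-65486331). Near CAPN13 the covered share was 20.4% in H146 and 7.64% in H82, and near LURAP1L and MPDZ it was 16.7% and 3.68%. FOXD4L5 and ZNG1E lie in a segment of chromosome 9 with near-identical copies, so the placement of reads there is uncertain.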

How the data were processed

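ATAC-seq reads of 7 H146 and 6 H82 samples were trimmed by the authors with Trim Galore 0.4.4, aligned to hg38 with Bowtie2 2.3.4 and cleared of reads sharing start and orientation with Picard. The authors called regions per sample with MACS2, removed blacklisted ones and merged regions within 500 bp into the deposited list of each line. The deposited values are region starts, counted from 0, and ends; coordinates are printed from 1. Merging joins neighbouring sites, and treated and untreated regions cannot be told apart. In H146, 3 controls were sequenced apart from the other control and the 3 treated samples. Whether Tn5 ends were shifted is not given in the sources used here. 0 columns of per-sample values were set aside.

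Overlap was checked with bedtools 2.31.1, which classified 0 regions differently. Genes were those of GENCODE release 44, and sequence came from the hg38 reference. Word densities per chromosome, with 0.5 added in the smaller class and a number scaled to its size in the larger, were compared by sign flips over 22 chromosomes (two-sided, 100000 resamples, seed 1, Benjamini-Hochberg over 37 words or 3 features). The scaled addition replaced a flat 0.5 after the flat value was seen to distort rare words. The test was checked on simulated data with the same ratio on every chromosome. The simulated densities lay above those of rare words such as CTCF, ETS, KLF, MEF2 and GRHL, so the check does not cover them. Standard errors are those of the pooled value and leave out each chromosome in turn. CTCF and RE1 were matched as consensus words of 12 and 15 bases, and RE1 had 3 matches in H146-only regions. Flanks meeting a region of either line were left out, so 10865 regions had one. Reweighting used bins of 2% GC and 100 bp of width. The shares given by widths apply the H146-only share of each 100-bp width class.

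Named genes were the 10 nearest to the most regions, list genes nearest to 5 or more, the 5 runs with the most regions, and NEUROD1, INSM1, FOXA1, FOXA2, NKX2-1 and SYP; others were named after their values were seen, and some genes that the rule met are not reported here. Named words were FOXA, OTX, CTCF, the E-box CAGCTG, the E-box CAGATG and the 5 highest and 5 lowest log2 ratios that passed against shared regions; further words were added after their values were seen. The members, word list and gene lists were chosen with earlier results of these data known. Alternatives were distance from H82 regions, width, distance from the TSS, gene bodies of any type, the middle 200 bp, the fraction of regions holding a match, reweighting, and the nearest gene body edge.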

Additional observations from a re-analysis of the deposited data

How the results depend on the processing

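No value had replicates, since each line gives 1 pooled list, so no sample could be left out and depth limits what was called to an unknown extent. No paired analysis was possible because the lists carry no sample. The share of repeat bases and the alternative without repeats were not run, because the reference sequence used here carries no repeat mask. Requiring a width of at least 500 bp left 2918 regions, 14.5% of the H146 regions that wide, and moved most counts. Words that differed from shared regions then fell to 8, with 3 denser, words denser than the flanks to 11, and the H146-only share near the gene lists to 15.4% (lineage factors), 18.2% (neuroendocrine), 9.72% (low-neuroendocrine), 17.7% (adhesion and guidance) and 15.2% (endoderm); 5 of the 10 genes with the most regions were still among the 10. When the share of regions with a match was used in place of density, 0 words were denser and 20 sparser than in shared regions, which are wider. The log2 ratio to shared regions under that measure was -0.0458 for the FOXA word TGTTTAC, -0.0216 for HNF1, -0.0490 for NFI and -0.27 for CAGATG, and the ratio of CAGCTG to H82-only regions was -0.0136. Reweighting turned CAGCTG against shared regions to 0.12. Of 91 such values of named words against shared regions, 68 kept direction and side of the threshold, as did 84 of 91 against H82-only regions and 23 of 26 against flanks. The GC and distance differences passed under all alternatives run for them.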

Other observations

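Chromosome X was outside the rule. On it, 324 of 1095 H146 intergenic regions of 300 bp to 1 kb (29.6%, 95% Wilson interval 27.0 to 32.4) had no overlap with H82, and 809 of 1516 H82 regions (53.4%) had none with H146.

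Among 1102 genes nearest to 10 or more H146 intergenic regions of this width, 38 had no H146-only region. H146-only regions lay upstream of the nearest TSS in 60.7% of cases, against 61.2% of shared regions, and 28 of the 181 genes with 10 or more H146-only regions were on chromosome 18.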
